A study of Homo sapiens with 8 samples.

Results

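The endoplasmic reticulum (ER) quality control machinery was followed through 38 genes for ER chaperones, disulfide enzymes, sensors of the unfolded protein response (UPR) and ER-associated degradation (ERAD). The 38 genes were listed by symbol, with earlier results of these data known, and all 38 were matched among the 58787 gene identifiers counted. Polyadenylated RNA was sequenced from IMR32, an established neuroblastoma line with amplified MYCN that the labels give as wild type. Cells were exposed for 6 h to CR31B, a rocaglate inhibitor of the RNA helicase eIF4A, at its IC50, or to the vehicle, 0.1% DMSO. Each treatment had 4 libraries numbered as replicates, described as biological by the submitters, and all 8 came from this 1 line. The concentration behind the IC50 is not given in the sources used here.

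The ER folds secreted and membrane proteins with the help of HSP70- and HSP90-type chaperones, lectin chaperones and disulfide isomerases. When unfolded proteins build up, the sensors ATF6, IRE1 (encoded by ERN1) and PERK (encoded by EIF2AK3) start the UPR, which raises chaperone and ERAD genes through ATF6 and spliced XBP1 and lowers translation through PERK. Cleaved ATF6 and XBP1 act on ER stress response elements (ERSE) in the promoters of chaperone genes, and ERAD returns misfolded proteins to the cytosol for the proteasome.

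The ERSE is shown here because it was found in the promoters of 7 of the genes described below. It was searched as CCAAT, 9 bases of any kind and CCACG, on both strands of RefSeq promoter windows (GRCh38.p14). Each window ran from 250 bases before to 50 bases after a RefSeq start. For each of the 38 genes the first listed window was used, while the background counted every window. The RefSeq start can differ from the annotated gene start, as for CANX (179678628). The sites are written 5′ to 3′ on the strand that carries the motif, with the fixed bases in capitals.
HSPA5 (chr9:125241391-125241409, the gene's strand, minus): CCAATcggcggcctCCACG
HSP90B1 (chr12:103930216-103930234, the gene's strand, plus): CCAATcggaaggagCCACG
HSP90B1 (chr12:103930321-103930339, opposite strand, minus): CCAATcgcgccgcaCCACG
CALR (chr19:12938384-12938402, opposite strand, minus): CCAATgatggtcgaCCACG
CANX (chr5:179698778-179698796, the gene's strand, plus): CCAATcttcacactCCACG
ERO1B (chr1:236282183-236282201, opposite strand, plus): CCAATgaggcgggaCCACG
CRELD2 (chr22:49918554-49918572, opposite strand, minus): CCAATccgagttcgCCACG
XBP1 (chr22:28800603-28800621, the gene's strand, minus): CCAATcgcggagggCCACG

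The 250 bases upstream of HSPA5, the gene with the largest called change among the abundant chaperones, are given with the same element in capitals (chr9:125241344-125241593, minus strand, read 5′ to 3′ towards the gene).
HSPA5 upstream region: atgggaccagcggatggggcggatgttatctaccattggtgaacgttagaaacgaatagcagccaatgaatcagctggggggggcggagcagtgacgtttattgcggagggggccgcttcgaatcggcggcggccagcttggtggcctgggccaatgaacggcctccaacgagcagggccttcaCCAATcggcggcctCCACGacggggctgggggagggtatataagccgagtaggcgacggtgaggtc

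Levels are given as CPM, each count scaled by the effective size of its library (TMM method). Library totals ranged from 43687828 to 64715535 counts, and protein-coding genes took 98.25% to 98.57% of them. The pair numbered 1 was read paired-end and pairs 2 to 4 single-end, so layout and replicate number cannot be told apart. All 10 adrenergic neuroblast markers were at 1 CPM or more in all 8 libraries, with summed levels of 5480 to 6940 CPM under CR31B and 5170 to 6860 CPM under DMSO. Of 10 mesenchymal markers 4 reached 1 CPM in every library (summed 342 to 599 CPM under CR31B and 378 to 464 CPM under DMSO). Marker sums of Schwann, immune, endothelial and epithelial cells stayed at or below 8.5 CPM, and SOX10, CDH19, CD3E, CD68 and KRT18 were at 0.

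The replicate 1 libraries went against their labels. Of the genes called in replicates 2 to 4, 98.9% had the opposite sign in pair 1, the library labelled CR31B minus the library labelled DMSO. The mean chi-square per gene between libraries was 8.96 to 16.3 for the library labelled CR31B replicate 1 against DMSO replicates 2 to 4, and 88.8 to 136 against CR31B replicates 2 to 4. For the library labelled DMSO replicate 1 it was 83.5 to 103 against DMSO replicates 2 to 4 and 7.59 to 19.6 against CR31B replicates 2 to 4. Whether the labels of these 2 libraries were exchanged was not tested, no label was changed, and every value as labelled carries this doubt. Results are therefore given as labelled over 8 libraries, within the 6 single-end libraries (replicates 2 to 4), and for pair 1 apart, which has no replicate. Because the RNA came in bulk, fewer cells of a kind and less RNA per cell cannot be told apart.

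Over all 8 libraries as labelled, 0 of the 38 genes passed an adjusted p of 0.05 (edgeR quasi-likelihood test with Benjamini-Hochberg adjustment over all genes, adjusted p from 0.707 to 0.953). Over all 16518 tested genes the share called was also 0%. At an unadjusted p under 0.05 there were 205 genes, with 0 among the 38, and DESeq2 and limma voom also called 0 of the 38. Without CR31B replicate 1 the count was 25 (41.6% of all tested genes were called), and without DMSO replicate 1 it was 26 (41.1% of all). In both cases the remaining replicate 1 library was alone in its layout. The median log2 fold change of the 38 was -0.08. The CR31B and DMSO levels overlapped for all 38 genes, against a background in which 0.66% of genes did not overlap.

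Within replicates 2 to 4, 20 of the 38 genes were called lower under CR31B, among them the most abundant chaperones and disulfide isomerases. Of 47 other ER folding factors, given below, 14 fell and 3 rose, with a median log2 fold change of -0.11. Their share called in either direction was 36.2%, against 41.3% of all tested genes. HSPA5 (BiP), the main ER HSP70 chaperone, fell 1.91-fold, CALR 1.65-fold and HSP90B1 1.49-fold, while the sensors ERN1 and ATF6 rose 1.33-fold and 1.26-fold. Of the 38 genes 26 were called (68.4%, against 41.3% of all tested genes). The 20 lower genes stood against a background of 17.6% called lower, and the 6 higher genes against 23.8% called higher. Without CR31B replicate 4, 3 of the 38 genes were called higher, as were 3350 of 17073 tested genes. In that fit 32.7% of all tested genes were called. The median log2 fold change was -0.20 for the 38 genes and -0.01 for all tested genes. Falls ranged from 1.14-fold to 1.99-fold and rises from 1.10-fold to 1.33-fold, and 0 of the called genes passed 2-fold. The single-end CR31B and DMSO levels did not overlap for 28 of the 38 genes (73.7%, against 52.1% of all tested genes), 22 of them lower and 6 higher.

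**Figure D1:**
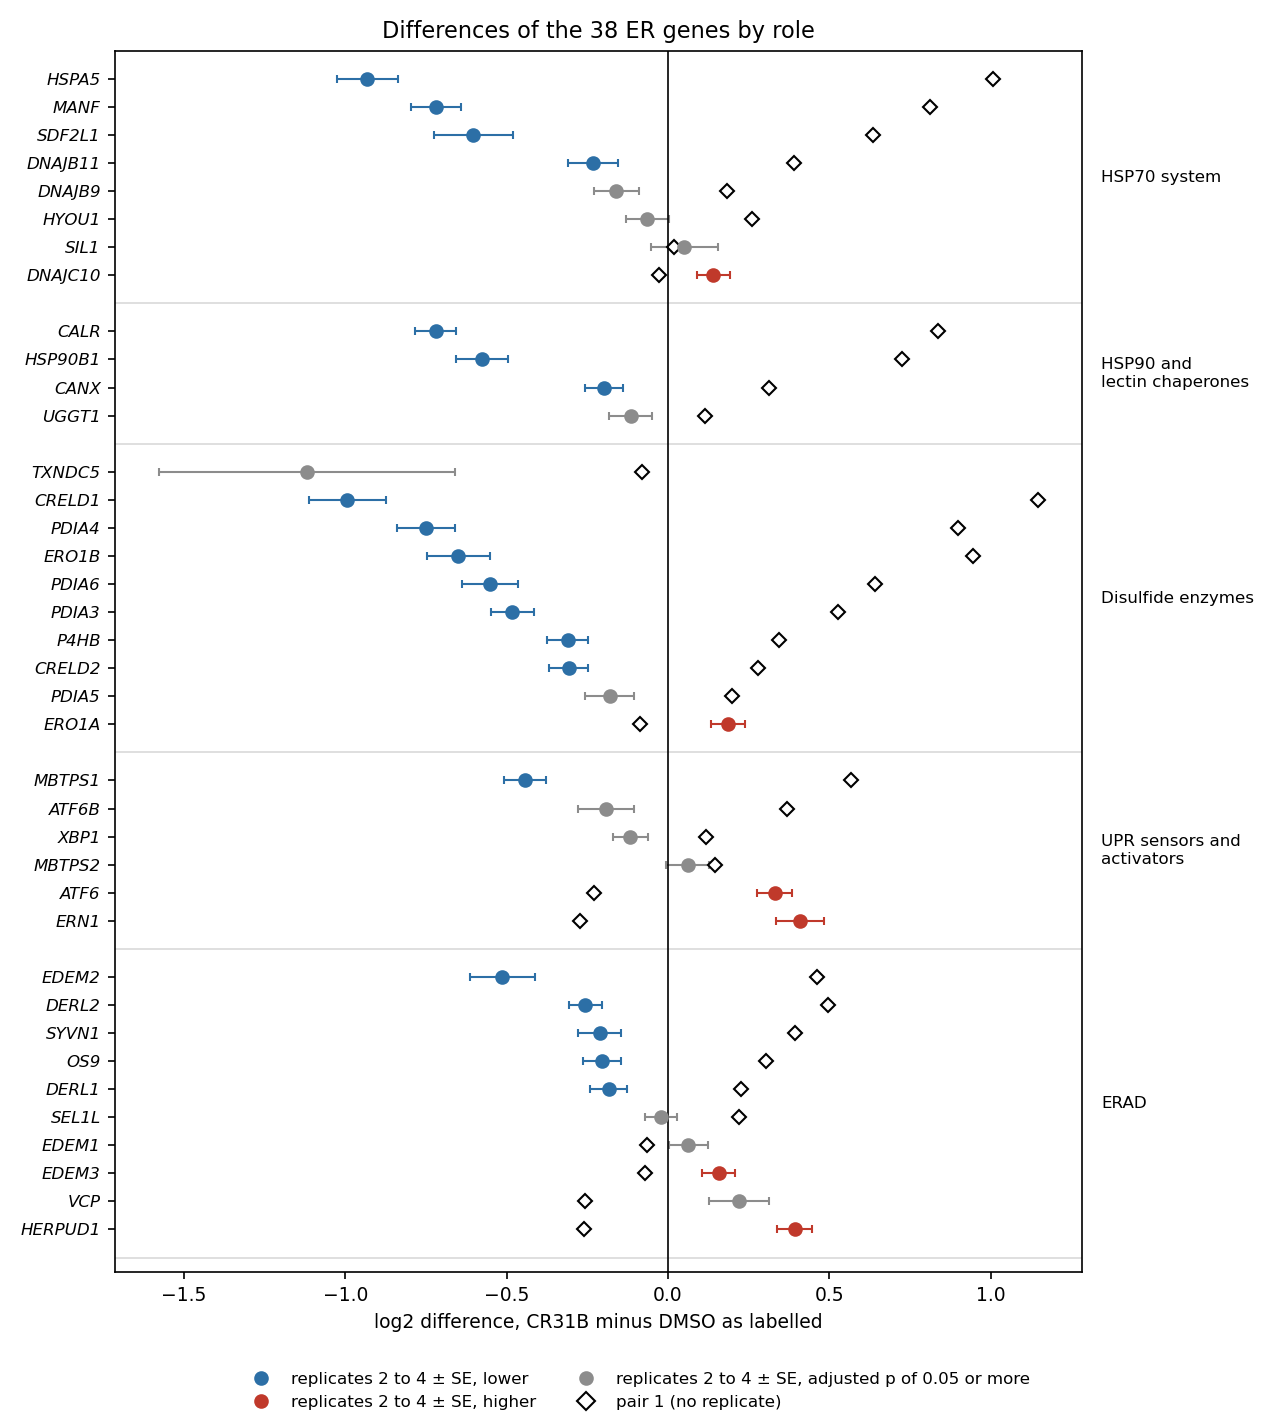
The log2 difference (CR31B minus DMSO, horizontal axis) is drawn for each of the 38 genes, grouped by role. Filled circles give replicates 2 to 4 with their standard error, coloured by call, and open diamonds give pair 1; the lower genes sit left of 0 with their diamonds right of 0, and the 6 higher genes sit right of 0 with their diamonds left of 0.

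Pair 1 ran opposite for all 26 called genes. In pair 1, 29 of the 38 genes were higher and 9 lower in the library labelled CR31B, whereas 31, 28 and 26 were lower in pairs 2, 3 and 4. Of the 26 genes lower in each of pairs 2 to 4, 25 were higher in pair 1, and the 7 genes higher in each of pairs 2 to 4 were all lower in pair 1. The difference between pair 1 and replicates 2 to 4, tested as an interaction in edgeR, passed for 24 of the 38 genes (63.2%, background 42.5%), 21 with a positive and 3 with a negative sign. Among the 26 called genes it did not pass for DNAJC10, ERO1A and EDEM3. With 1 paired-end library per treatment, only the single-end libraries give that test its estimate of spread.

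Of the 8 genes of the HSP70 system, 4 fell, 1 rose and 3 were not called in replicates 2 to 4 (median log2 fold change -0.20). The share called was 62.5%, against 41.3% of all tested genes (17.6% lower and 23.8% higher). HSPA5 (ENSG00000044574, chromosome 9, 125234853 to 125241330, minus strand, GRCh38) binds unfolded chains and also holds the UPR sensors inactive. Its level was 305, 255 and 317 CPM in CR31B replicates 2 to 4 and 619, 498 and 559 CPM in DMSO replicates 2 to 4. The single-end groups were well separated, at 293 ± 33.1 CPM against 558 ± 60.4 CPM (SD, n = 3 each). The log2 fold change was -0.93 ± 0.09 (SE, edgeR adjusted p = 3.37e-05), and the pairs gave -1.02, -0.96 and -0.82. In replicate 1 HSPA5 was at 696 CPM in the library labelled CR31B and at 347 CPM in that labelled DMSO. The first lay above every single-end DMSO library and the second below them. With all 8 libraries as labelled the log2 fold change was -0.47 ± 0.32 (SE, edgeR adjusted p = 0.707).

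MANF (ENSG00000145050, chromosome 3, 51385047 to 51389397, plus strand), a small secreted ER stress protein that binds HSPA5, was at 67.5, 57.2 and 63.4 CPM under CR31B and 111, 93.6 and 105 CPM under DMSO in replicates 2 to 4. These levels did not overlap and gave a log2 fold change of -0.72 ± 0.08 (SE, edgeR adjusted p = 4.99e-05). In replicate 1 it was at 118 CPM in the library labelled CR31B and 67.2 CPM in the library labelled DMSO. SDF2L1, which works in a complex with the co-chaperone DNAJB11, fell from 23.6 ± 2.59 to 15.6 ± 2.60 CPM (SD, n = 3 each, log2 fold change -0.60). DNAJB11 itself fell less, by 0.23 on the log2 scale, and was not called without CR31B replicate 3 or 4 or DMSO replicate 2 or 4 (edgeR adjusted p from 0.0752 to 0.134). DNAJC10, a co-chaperone with reductase activity that serves ERAD, was at 189, 193 and 189 CPM under CR31B and 182, 169 and 167 CPM under DMSO. It rose 1.10-fold (log2 fold change 0.14 ± 0.05 SE, edgeR adjusted p = 0.0483), but its direction depended on the processing. Offsets for GC content and length reversed it to -0.16 (edgeR adjusted p = 0.065). With the replicate block added, which pairs libraries by their number, it was called lower (-0.15, edgeR adjusted p = 0.00559). Its call was also lost with scaling by RLE (adjusted p = 0.074), upper quartile (0.491) or total count (0.345), with both other filters (0.109 and 0.107) and with DESeq2 (0.0813). The same held without any of CR31B replicates 2 to 4 or without DMSO replicate 3 or 4 (edgeR adjusted p from 0.0749 to 0.161). In replicate 1 DNAJC10 was at 194 and 198 CPM in the libraries labelled CR31B and DMSO.

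DNAJB9 (ENSG00000128590, chromosome 7, 108569568 to 108574850, plus strand) is a co-chaperone that keeps IRE1 inactive and a known target of spliced XBP1. Its levels were 30.7, 29.7 and 34.0 CPM under CR31B and 37.3, 33.6 and 34.7 CPM under DMSO in replicates 2 to 4, and 44.5 and 39.2 CPM in the replicate 1 libraries labelled CR31B and DMSO. The single-end groups overlapped. The log2 fold change of -0.16 ± 0.07 (SE) had an edgeR adjusted p of 0.0895, of 0.0365 with the replicate number as a block and of 0.0482 without CR31B replicate 4. DNAJB9 was also called lower with upper quartile scaling (-0.26), total count scaling (-0.24), the filter of CPM over 1 (-0.20) and the GC and length offsets (-0.23). HYOU1, an HSP110-type chaperone, and SIL1, a nucleotide exchange factor for HSPA5, were not called either, at -0.06 and 0.05 on the log2 scale, although HYOU1 passed as lower with upper quartile scaling (-0.16, adjusted p = 0.0492).

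Of the HSP90 and lectin chaperones, 3 of 4 fell and 0 rose (median log2 fold change -0.39, 75% called against 41.3% of all tested genes). HSP90B1 (GRP94, ENSG00000166598, chromosome 12, 103930107 to 103953645, plus strand), the ER HSP90, was at 544, 490 and 553 CPM under CR31B and 888, 725 and 752 CPM under DMSO in replicates 2 to 4. The single-end groups did not overlap, and the log2 fold change was -0.57 ± 0.08 (SE, edgeR adjusted p = 0.000284). In replicate 1 it was at 984 CPM in the library labelled CR31B and 595 CPM in the library labelled DMSO. CALR (calreticulin, ENSG00000179218, chromosome 19, 12938578 to 12944489, plus strand), the soluble lectin chaperone of N-glycoproteins, was at 355, 323 and 342 CPM under CR31B and 604, 527 and 552 CPM under DMSO. Its single-end groups did not overlap either, with a log2 fold change of -0.72 ± 0.06 (SE, edgeR adjusted p = 1.32e-05), the smallest adjusted p of the 38 genes. The replicate 1 libraries labelled CR31B and DMSO held 627 and 351 CPM of CALR. CANX (calnexin), the membrane-bound counterpart of CALR, fell less, from 930 ± 50.1 to 811 ± 37.7 CPM (SD, n = 3 each, log2 fold change -0.20). Without replicate 2 of CR31B or of DMSO the CANX call was lost (edgeR adjusted p = 0.0736 and 0.0845). UGGT1, which returns unfinished glycoproteins to these lectins, was not called at -0.12. It passed as lower with upper quartile scaling (-0.21, edgeR adjusted p = 0.011), total count scaling (-0.20, 0.0151), GC and length offsets (-0.29, 0.0094) and those offsets with the replicate block (-0.29, 0.000162).

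**Figure D2:**
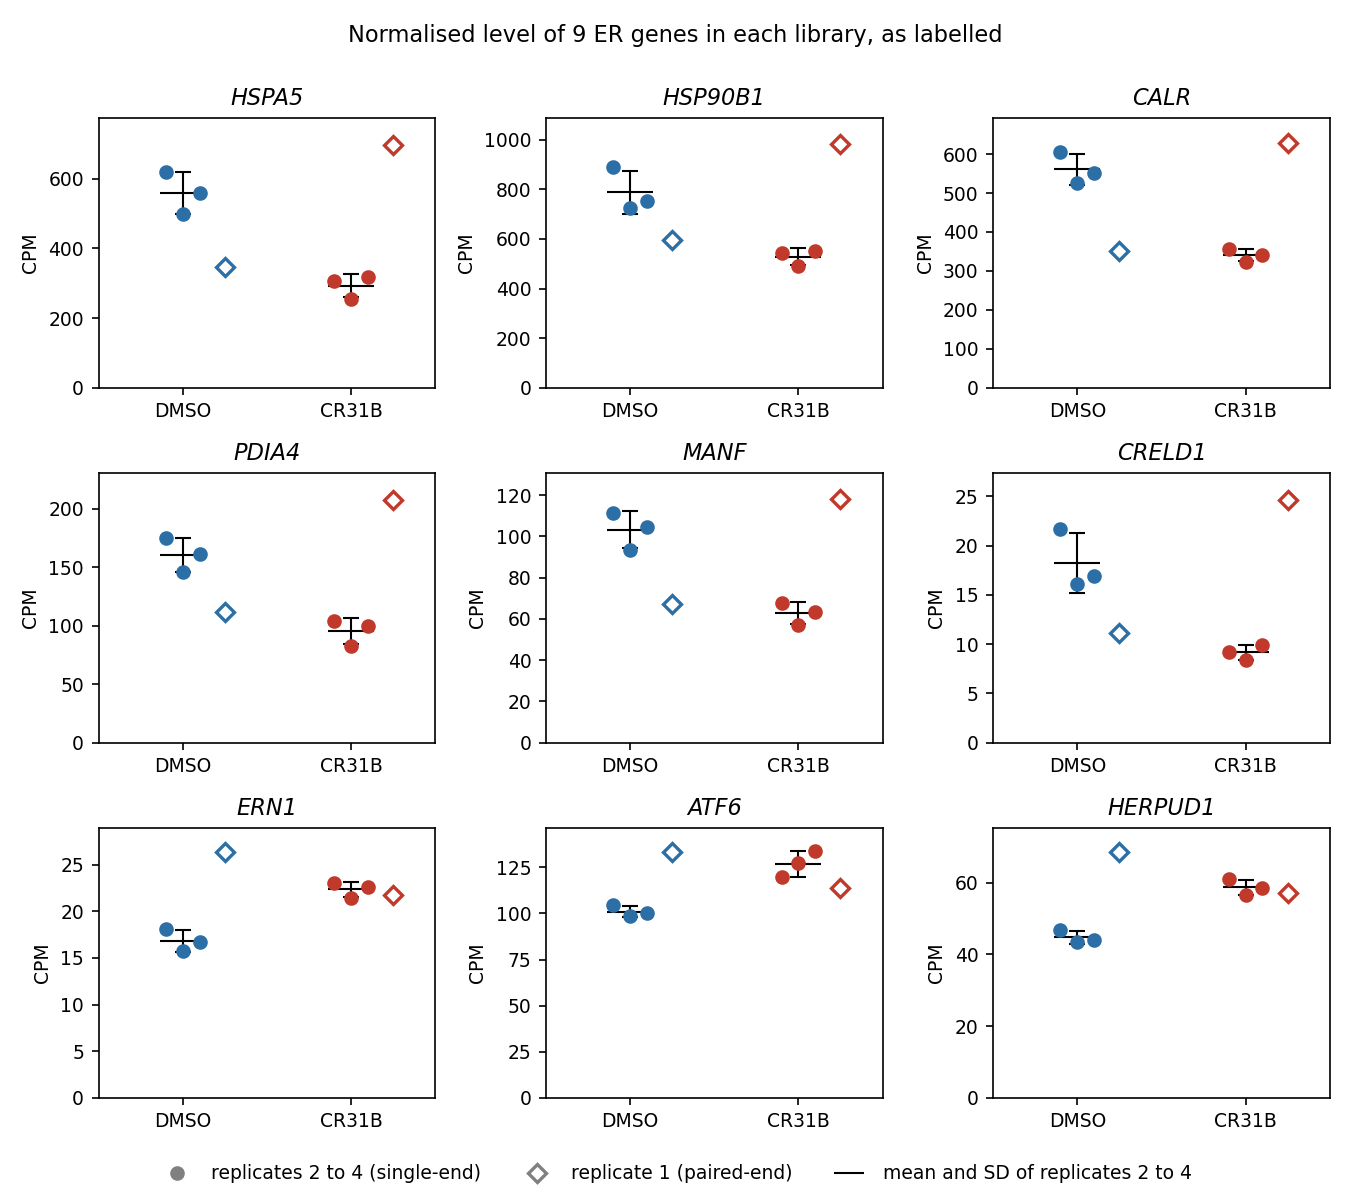
The TMM-normalised level (CPM, vertical axis from 0) is plotted in each library for 9 genes, with circles for the single-end replicates 2 to 4, diamonds for the paired-end replicate 1, and bars for the mean and SD of replicates 2 to 4. For HSPA5 the circles lie at 255 to 317 CPM under CR31B and 498 to 619 CPM under DMSO, while the diamonds lie at 696 and 347 CPM.

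The 10 disulfide enzymes and their relatives held the most called genes, with 7 lower, 1 higher and 2 not called (median log2 fold change -0.52). The share called was 80%, against 41.3% of all tested genes. PDIA4 (ENSG00000155660, chromosome 7, 149003062 to 149028641, minus strand), a disulfide isomerase found with HSPA5 and HSP90B1, was at 104, 82.6 and 99.5 CPM under CR31B and 175, 146 and 161 CPM under DMSO in replicates 2 to 4. The groups did not overlap, and the log2 fold change was -0.75 ± 0.09 (SE, edgeR adjusted p = 0.000103). In replicate 1 PDIA4 was at 207 CPM in the library labelled CR31B and 111 CPM in the library labelled DMSO. The isomerases PDIA6 (log2 fold change -0.55), PDIA3 (-0.48) and P4HB (-0.31) also fell. PDIA3, the partner of the lectin chaperones, went from 605 ± 35.5 to 432 ± 29.8 CPM and PDIA6 from 346 ± 31.2 to 236 ± 25.5 CPM (SD, n = 3 each).

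CRELD1 (ENSG00000163703, chromosome 3, 9933822 to 9945413, plus strand), an EGF-domain protein of the ER membrane, showed the largest fold among the called genes. It was at 9.17, 8.38 and 9.92 CPM under CR31B and 21.7, 16.1 and 16.9 CPM under DMSO in replicates 2 to 4. It fell 1.99-fold without overlap between the groups (log2 fold change -0.99 ± 0.12 SE, edgeR adjusted p = 0.000107). The replicate 1 libraries labelled CR31B and DMSO were at 24.6 and 11.1 CPM. Its secreted relative CRELD2 fell by 0.31 on the log2 scale. 

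The 2 ER oxidases, which re-oxidise the isomerases, went in opposite directions. ERO1B (ENSG00000086619, chromosome 1, 236215555 to 236281985, minus strand) was at 7.53, 6.52 and 7.28 CPM under CR31B and 12.2, 10.7 and 10.5 CPM under DMSO in replicates 2 to 4, and fell 1.57-fold (log2 fold change -0.65 ± 0.10 SE, edgeR adjusted p = 0.000447). Its replicate 1 libraries labelled CR31B and DMSO were at 16.6 and 8.60 CPM. ERO1A (ENSG00000197930, chromosome 14, 52639916 to 52695900, minus strand) was at 109, 117 and 119 CPM under CR31B and 104, 103 and 96.7 CPM under DMSO. It rose 1.14-fold (log2 fold change 0.19 ± 0.05 SE, edgeR adjusted p = 0.0183), with replicate 1 libraries labelled CR31B and DMSO at 113 and 120 CPM. The ERO1B groups were far apart and the ERO1A groups narrowly apart. The ERO1A call was lost under upper quartile scaling (adjusted p = 0.196), total count scaling (0.135) and offsets for GC content and length (0.885), and without replicate 4 of CR31B (0.0733) or of DMSO (0.0673). PDIA5 was not called at -0.18 but passed as lower with upper quartile scaling (-0.28), total count scaling (-0.26) and the filter of CPM over 1 (-0.22). TXNDC5, a further isomerase, was at 0.0345 to 0.263 CPM over the 8 libraries and overlaps other same-strand genes over 60.6% of its exonic bases. Its log2 fold change (-1.12 ± 0.46 SE, not called) is therefore uncertain.

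Of the 6 UPR sensors and activators, 2 rose, 1 fell and 3 were not called (median log2 fold change -0.03). The share called was 50%, not far from the 41.3% of all tested genes (17.6% lower and 23.8% higher). ERN1 (ENSG00000178607, chromosome 17, 64039142 to 64130819, minus strand) encodes IRE1, the kinase and nuclease that splices XBP1. It was at 23.0, 21.4 and 22.6 CPM under CR31B and 18.1, 15.7 and 16.7 CPM under DMSO in replicates 2 to 4. All CR31B libraries among these lay above all DMSO libraries, and the log2 fold change was 0.41 ± 0.07 (SE, edgeR adjusted p = 0.00138). In replicate 1 the order turned, with 21.8 CPM in the library labelled CR31B and 26.3 CPM in the library labelled DMSO. As labelled over 8 libraries the log2 fold change of ERN1 was 0.24 ± 0.13 (SE), which was not called.

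ATF6 (ENSG00000118217, chromosome 1, 161766294 to 161964070, plus strand), a membrane-bound factor cut in the Golgi to release a transcription activator, was at 120, 128 and 134 CPM under CR31B and 105, 98.5 and 100.1 CPM under DMSO in replicates 2 to 4. These groups did not overlap (log2 fold change 0.33 ± 0.06 SE, edgeR adjusted p = 0.000816). In replicate 1 it was at 114 CPM in the library labelled CR31B and 134 CPM in the library labelled DMSO. Offsets for GC content and length lowered the log2 fold change to 0.15 (adjusted p = 0.0544, and 0.0147 with the replicate block added). MBTPS1, the protease that makes the first of the Golgi cuts in ATF6, fell by 0.44 on the log2 scale (edgeR adjusted p = 0.000379). MBTPS2, which makes the following cut, had a log2 fold change of 0.06 and the ATF6 relative ATF6B one of -0.19, and neither was called in the fit without a block. ATF6B passed as lower without CR31B replicate 3 (adjusted p = 0.0241) and with upper quartile scaling (-0.29), total count scaling (-0.27) and no filter (-0.20). MBTPS2 turned to -0.15 with GC and length offsets (edgeR adjusted p = 0.089), and with the replicate block added it was called lower (adjusted p = 0.0427).

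XBP1 (ENSG00000100219, chromosome 22, 28794555 to 28800597, minus strand) becomes an active factor only when IRE1 splices its mRNA, and gene counts do not separate the spliced from the unspliced form. Its levels were 67.1, 70.1 and 73.5 CPM under CR31B and 79.3, 73.8 and 75.6 CPM under DMSO in replicates 2 to 4. The groups touched closely without overlap, and the log2 fold change of -0.12 ± 0.05 (SE, edgeR adjusted p = 0.111) was not called. The replicate 1 libraries labelled CR31B and DMSO were at 97.0 and 89.5 CPM. Upper quartile scaling (adjusted p = 0.00637), total count scaling (0.0101) and the filter of CPM over 1 (0.0322) each put XBP1 past the threshold as lower.

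Of the 10 ERAD genes, 5 fell, 2 rose and 3 were not called (median log2 fold change -0.10, 70% called against 41.3% of all tested genes). HERPUD1 (ENSG00000051108, chromosome 16, 56932048 to 56944863, plus strand), a membrane scaffold of the ERAD ubiquitin ligase and a known UPR target, was at 60.9, 56.6 and 58.5 CPM under CR31B and 46.8, 43.4 and 44.0 CPM under DMSO in replicates 2 to 4. It rose 1.31-fold without overlap of the groups (log2 fold change 0.39 ± 0.05 SE, edgeR adjusted p = 0.000274). In replicate 1 it was at 57.2 CPM in the library labelled CR31B and 68.5 CPM in the library labelled DMSO. As labelled over 8 libraries its log2 fold change was 0.23 ± 0.12 (SE), which was not called.

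The EDEM genes, whose products trim mannose from misfolded glycoproteins, differed among themselves. EDEM2 fell by 0.51 on the log2 scale (edgeR adjusted p = 0.00226), EDEM1 was not called at 0.06, and EDEM3 rose by 0.16. EDEM3 (ENSG00000116406, chromosome 1, 184690231 to 184754913, minus strand) was at 171, 185 and 187 CPM under CR31B and 168, 162 and 158 CPM under DMSO in replicates 2 to 4, narrowly apart (edgeR adjusted p = 0.0346). Its replicate 1 libraries labelled CR31B and DMSO were at 209 and 220 CPM, and offsets for GC content and length turned its log2 fold change to -0.04. The EDEM3 call was also lost with scaling by RLE (adjusted p = 0.0504), upper quartile (0.354, log2 fold change 0.06) or total count (0.245, 0.08) and with both other filters (0.0598 and 0.0707), as well as without replicate 3 or 4 of either treatment (edgeR adjusted p from 0.0641 to 0.116). The channel components DERL2 (-0.26) and DERL1 (-0.18), the lectin OS9 (-0.20) and the ubiquitin ligase SYVN1 (-0.21) fell. Of these, DERL1 lost its call without CR31B replicate 2 or 3 or DMSO replicate 2 or 4, OS9 without replicate 2 of either treatment or DMSO replicate 4, and SYVN1 without CR31B replicate 3 or 4 or DMSO replicate 2. Their edgeR adjusted p was then at most 0.085, 0.0654 and 0.107. SEL1L, the adaptor of SYVN1, was not called at -0.02, but GC and length offsets put it at -0.24 and past the threshold, alone (edgeR adjusted p = 0.0053) or with the replicate block (0.000513). Not called either was the segregase VCP at 0.22, which passed without CR31B replicate 3 (adjusted p = 0.0221) or DMSO replicate 4 (0.0264) and with no filter on low counts (0.0021). With the replicate number as a block in edgeR, VCP (adjusted p = 0.0185), PDIA5 (0.0452) and ATF6B (0.0241) also passed, as did DNAJB9. This gave 30 called genes, while the share called over all tested genes rose from 41.3% to 51.1%.

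Levels between genes were compared per length, as a description with no test. The 10 genes with the highest DMSO level per kilobase of exon in replicates 2 to 4 were CALR (207 CPM per kb), HSP90B1 (168), CANX, HSPA5 (143), PDIA3, PDIA6, P4HB, VCP, PDIA4 (49.0) and MANF (43.3). Of these, 9 fell, 0 rose and VCP was not called (median log2 fold change -0.56). Of the other 28, 11 fell, 6 rose and 11 were not called (median -0.17). Among all tested genes 17.6% were called lower and 23.8% higher. Falls of similar size also occurred among the genes low per length, such as CRELD1 (rank 32 of 38) and ERO1B (rank 36), while CANX, at rank 3, fell by only 0.20. ERN1, at 1.55 CPM per kb, ranked 37 among the 38. The summed level of the 38 genes was 5245, 4934 and 5448 CPM under CR31B and 6936, 6188 and 6471 CPM under DMSO in replicates 2 to 4 (5209 ± 259 against 6532 ± 378 CPM, SD, n = 3 each). The replicate 1 libraries labelled CR31B and DMSO held 7705 and 5739 CPM.

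The promoter windows of 36 of the 38 genes were matched (PDIA3 and DERL1 were not). The ERSE occurred in 7 of these 36 windows (19.4%) and in 27 of 35116 promoters in all (0.077%). Of the 7 genes, 6 fell in replicates 2 to 4 and XBP1 was not called, with log2 fold changes from -0.93 to -0.12 and a median of -0.57. Of the 29 genes without it, 12 fell, 6 rose and 11 were not called, with values from -1.12 to 0.41 and a median of -0.18. The 2 ranges overlapped, and no test was made. Over all tested genes the shares called were 17.6% lower and 23.8% higher. The sites began between position -243 (ERO1B) and position -52 (XBP1) counted from the RefSeq start of the window, and HSPA5 held its site at -66 to -48.

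ERSE-II, searched as ATTGG, 1 base and CCACG, occurred in 3 of the 36 windows (8.33%, against 0.054% of all promoters). These were HYOU1, SDF2L1 and HERPUD1, of which 1 was not called, 1 fell and 1 rose. The core of the UPR element, tgacgtgg, was in HYOU1, where it overlapped an ERSE-II match, and in DNAJC10 and VCP (8.33%, against 0.729% of all promoters). The core of the ATF4 element, searched as TGATG, 1 base and AAT, was in 0 of the 36 windows and in 0.991% of all promoters. Each match is a match of letters, not a measured binding site.

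**Figure D3:**
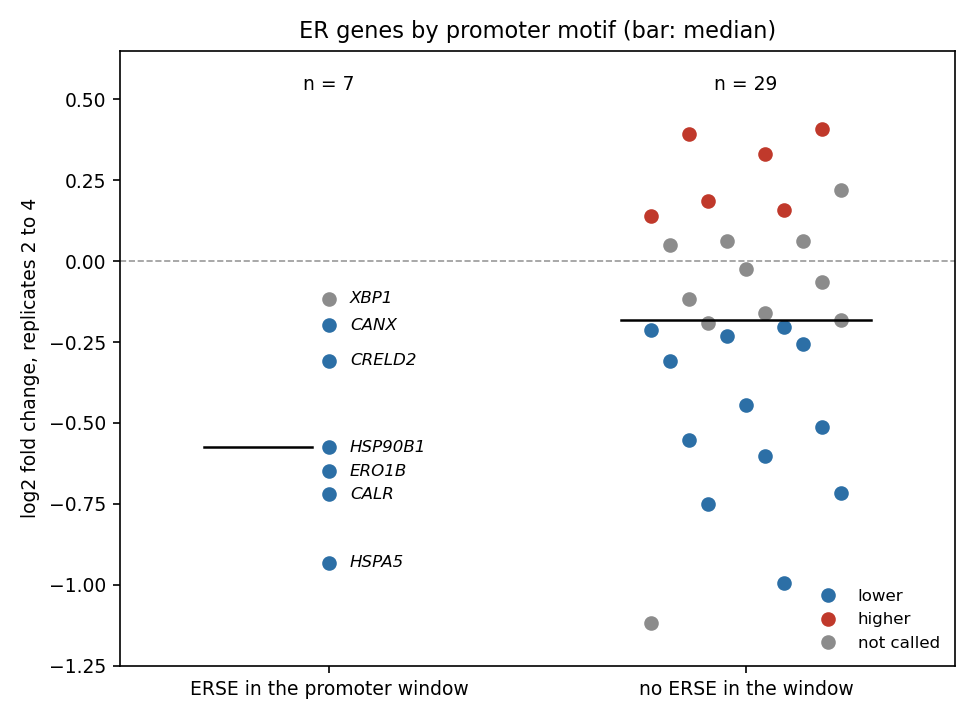
The log2 fold change in replicates 2 to 4 (vertical axis) is plotted for the 7 genes with an ERSE in the promoter window and the 29 without, each point being 1 gene coloured by call and each bar a median. The named genes on the left lie between -0.93 (HSPA5) and -0.12 (XBP1), and the genes on the right lie on both sides of 0.

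Other genes of the same pathways were read from 4 further lists in replicates 2 to 4. Among 47 tested genes for other ER folding factors, 14 fell and 3 rose (median log2 fold change -0.11). Of the 47, 36.2% were called, below the 41.3% of all tested genes, of which 17.6% were lower and 23.8% higher. PPIB (cyclophilin B, a proline isomerase of the ER), TOR1B and TMX2 fell by 0.45, 0.43 and 0.37, and ERP44 (0.38), SEC63 (0.34) and PRKCSH (0.19) rose. SEC63 was not called with GC and length offsets (0.13, edgeR adjusted p = 0.0998). PRKCSH was not called with scaling by RLE (adjusted p = 0.0537), upper quartile (0.242) or total count (0.165), with the filter of CPM over 1 (0.0687), or without CR31B replicate 4 or DMSO replicate 3 or 4 (edgeR adjusted p at most 0.1535). Without DMSO replicate 2 the lower count was 9, with 13.2% of all tested genes called lower. Among 35 tested genes for other ERAD factors, 12 fell and 7 rose (median -0.06, 54.3% called against 41.3% of all tested genes). JKAMP, UFD1 and BAG6 fell by 0.37, 0.34 and 0.29, and UBQLN2 (0.58), TRIM13 (0.56) and FOXRED2 (0.35) rose.

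Among 19 tested other UPR regulators, 6 rose and 5 fell (median 0.05, 57.9% called against 41.3% of all tested genes). PPP2CA (0.85), ITPR1 (0.62) and YY1 (0.60) rose, while WFS1, TRAF2 and TMBIM6 fell by 0.60, 0.27 and 0.23. Without DMSO replicate 2, and without DMSO replicate 4, 3 of them fell, with 13.2% and 13% of all tested genes called lower. ITPR1 was not called with upper quartile scaling (adjusted p = 0.0654), total count scaling (0.0605), DESeq2 (0.089) or GC and length offsets (0.107, log2 fold change 0.39), or without CR31B replicate 3 or 4 or DMSO replicate 2 or 4 (edgeR adjusted p at most 0.102), nor TRAF2 without DMSO replicate 3 or 4 (at most 0.0541).

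The list of the PERK branch, which holds PERK itself and genes of the integrated stress response, was mostly higher. Of 17 tested, 14 rose, 1 fell and 2 were not called (median log2 fold change 1.19, 88.2% called against 41.3% of all tested genes, and 23.8% called higher among all). CHAC1, a glutathione-degrading enzyme induced by ATF4, went from 3.02 ± 0.312 to 24.2 ± 2.22 CPM (SD, n = 3 each, log2 fold change 2.99). SLC7A11, the cystine transporter subunit, rose by 2.29 and SESN2 by 1.76. PPP1R15A, the phosphatase subunit that reverses PERK signalling, fell by 0.47. EIF2AK3, the third UPR sensor (PERK), and CTH, both named after their values were seen, were the 2 not called (log2 fold change -0.10 and 0.12). EIF2AK3 passed as lower with upper quartile scaling (-0.19, edgeR adjusted p = 0.0492) and with the replicate block and GC and length offsets (-0.22, adjusted p = 0.00256). Over all 8 libraries as labelled 0 genes of the 4 lists were called by edgeR, DESeq2 or limma voom, with 2 at an unadjusted p under 0.05 (TMEM129 of the ERAD factors and ASNS of the PERK branch, named after their values were seen), and every gene called in replicates 2 to 4 in these lists had the opposite sign in pair 1.

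**Figure D4:**
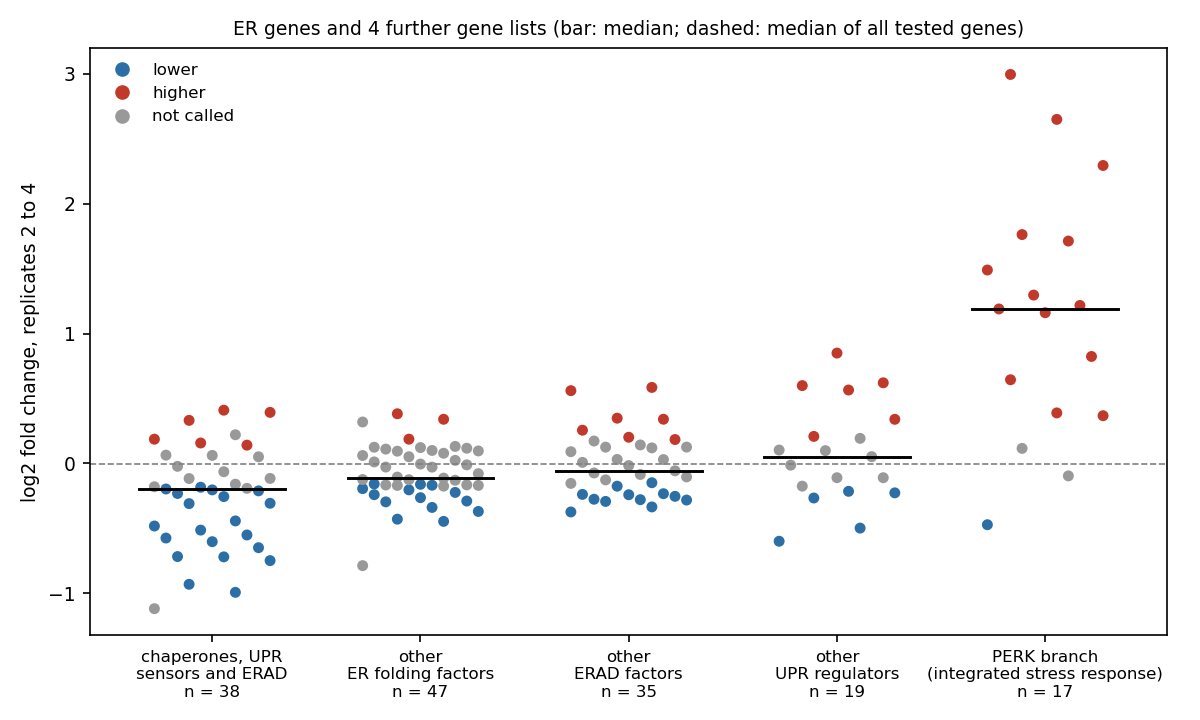
Each point is the log2 fold change of 1 gene in replicates 2 to 4 (vertical axis), coloured by call, for the 38 genes and 4 further lists; bars are medians and the dashed line is the median of all tested genes. The medians are -0.20 for the 38 genes and -0.11, -0.06, 0.05 and 1.19 for other ER folding factors, other ERAD factors, other UPR regulators and the PERK branch.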

How the data were processed

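The authors deposited raw counts, not normalised, for each Ensembl gene in 8 libraries. The submitters' processing notes name FastQC 0.11.7, STAR 2.7.2b, edgeR 3.36.0, limma 3.50.3 and GRCh38. The counting tool, annotation and strand setting are not stated in the sources used here. The deposited counts carry the word reverse in their name, which may refer to strand and is not explained. Per the labels' protocols, 250 ng of RNA and 15 PCR cycles were used, and the kit named is a small RNA kit although the molecule is polyadenylated RNA. Without molecular identifiers, counts include PCR duplicates, and depth covers counting error only. Identifiers were matched to GENCODE 29 (58515 of 58787), and 30 of the 38 genes share no exonic base with another gene on their strand. Where the counting did not use strand, antisense reads are included.

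The test was the quasi-likelihood test of edgeR 4.0.16 under R 4.3.3 (filterByExpr, TMM, glmQLFit, glmQLFTest, two-sided, Benjamini-Hochberg over all tested genes, threshold 0.05). The fit of 8 libraries had layout as a covariate, the fit of 6 single-end libraries gave the within-batch value, and a treatment by layout interaction compared both. Pair differences are on the log2 CPM scale, with 1 added as prior count. The scripts were tested on simulated data, with the same spread set for the 8-library fit as for replicates 2 to 4. For replicates 2 to 4, 82% of simulated log2 changes of 0.5 were recovered, with 10 false calls among 192. In the data the biological coefficient of variation was 16.3% over 8 libraries and 7.46% in replicates 2 to 4. The simulation therefore does not show what the 8-library fit could recover. P-values set each difference against the spread between these libraries of 1 cell line. No libraries were duplicates (smallest mean chi-square per gene 6.92). Deviations of same-numbered single-end libraries correlated at 0.21, 0.38 and 0.16, and over all 8 the values were -0.53, -0.08, 0.16 and -0.11. Correlations between libraries of different number are not given beside them, so whether the numbers mark pairs was not tested. The main single-end fit had no replicate block and called 26 of the 38 genes and 41.3% of all tested genes. With the block these were 30 of the 38 and 51.1%.

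The 38 genes, the further lists and the tests were chosen with earlier results of these data known. Per-library values were given for HSPA5, HSP90B1, XBP1, ERN1, ATF6, HERPUD1 and DNAJB9 and for up to 6 genes per direction with the largest called change in replicates 2 to 4. From each further list up to 3 called genes per direction with a mean of at least 5 CPM were named. RHBDL4, of the UPR regulators, was unmatched. Alternatives were scaling by RLE, by upper quartile and by total count, DESeq2 1.42.0, limma voom (limma 3.58.1), 2 further filters on low counts, no layout term, a replicate block, loess offsets for GC content and length (known for 99.86% of tested genes), and leaving out each library. Promoters came from RefSeq (GRCh38.p14).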

Additional observations from a re-analysis of the deposited data

Results flagged for a closer look

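In 11 of 76 groups of 4 libraries, 1 library stood apart from the other 3 by more than Dixon's 95% limit (gap to the nearest library divided by the whole range), and chance alone flags about 1 in 20 groups, or 3.8. In the CR31B group the ratios were 0.858 for HSPA5, 0.83 for MANF, 0.874 for HSP90B1, 0.895 for CALR, 0.834 for PDIA5, 0.9 for ERO1B, 0.905 for CRELD1, 0.893 for SYVN1 and 0.834 for DERL2. In the DMSO group they were 0.867 for HERPUD1 and 0.849 for EDEM3. The library that stood apart was replicate 1 in each of the 11. Replicate 1 also went against its label over all tested genes, with 98.9% of called genes opposite in pair 1. The share of all tested genes flagged by this rule was not computed.

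The log2 difference in pair 1 minus that in replicates 2 to 4 passed the interaction test (edgeR, adjusted p under 0.05) for 24 genes, with 1 paired-end library per treatment. Among the HSP70 system and other chaperones it was 1.94 for HSPA5, 1.53 for MANF, 1.24 for SDF2L1, 0.63 for DNAJB11, 1.30 for HSP90B1, 1.56 for CALR and 0.51 for CANX. Among the disulfide enzymes it was 2.14 for CRELD1, 0.59 for CRELD2, 1.65 for PDIA4, 1.597 for ERO1B, 1.19 for PDIA6, 1.01 for PDIA3 and 0.66 for P4HB. For the sensors and activators it was 1.01 for MBTPS1, 0.56 for ATF6B, -0.68 for ERN1 and -0.56 for ATF6. For ERAD it was 0.98 for EDEM2, 0.75 for DERL2, 0.61 for SYVN1, 0.51 for OS9, 0.41 for DERL1 and -0.65 for HERPUD1.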

How the results depend on the processing

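As labelled, 0 of the 38 genes were called under every setting with all 8 libraries, the replicate block included. Leaving out 1 library gave 0 to 26 called, with 25 without CR31B replicate 1 and 26 without DMSO replicate 1. In these last 2 fits 41.6% and 41.1% of all tested genes were called. In replicates 2 to 4, 17 of the 26 called genes kept direction and call under all 16 alternatives (15 lower, and ERN1 and HERPUD1 higher). The matching share over all called genes was not computed, so this count has no background. The count called higher, 6 with TMM scaling, was 3 with upper quartile scaling, 3 with total count scaling and 2 with GC and length offsets, and 3 to 6 when each library was left out. The count called lower was 20 with TMM scaling, 26 and 25 with those scalings, 23 with the offsets and 15 to 20 when each library was left out. Over all tested genes the share called lower was 17.6% with TMM scaling, 27% and 25.1% with those scalings and 19.9% with the offsets. It was 13% to 16.5% when each library was left out. Of all called genes 57.5% were higher with TMM scaling, 40.0% with upper quartile scaling, 43.1% with total count scaling, 49.5% with the offsets and 47.0% with the offsets and replicate block. When each library was left out this share was 58.2% to 61.8%. The median of the 38 was -0.30 with upper quartile scaling and -0.29 with the offsets, alone or with the replicate block. The replicate block alone gave 30 called genes, adding DNAJB9, PDIA5, ATF6B and VCP. With that block 51.1% of all tested genes were called, against 41.3% without it. The interaction gave 24 to 30 called genes, leaving out each single-end library included (chosen after seeing the data, as were the alternatives for the further lists). In these fits 24.3% to 52.6% of all tested genes were called.

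Reversals were as follows, and their cause was not tested. With upper quartile and total count scaling SIL1 was -0.04435 and -0.02712, MBTPS2 -0.03417 and -0.01684, and EDEM1 -0.03212 and -0.01479. With the offsets, with and without the replicate block, DNAJC10 was -0.1549 and -0.1555, MBTPS2 -0.1493 and -0.1494, and EDEM3 -0.04055 and -0.04068. When each library was left out SIL1 ranged from -0.02268 to 0.13 and SEL1L from -0.04199 to 0.0047. Of these, DNAJC10 and EDEM3 were called in the main comparison. Named list genes reversed under none of the 16 alternatives.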
